A study of Mus musculus with 39 samples.

Results

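The 9 genes Cpa3, Tpsb2, Cma1, Mcpt4, Kit, Gata2, Fcer1a, Hdc and Ms4a2 are genes for which mast cells are known, and they were followed through RNA libraries of brain macrophages from mouse embryos. They were taken by symbol from a table of 53379 gene identifiers. Cpa3, Tpsb2 and Cma1 were chosen by their measured counts, because their reads had been seen to appear in late border-associated macrophages in these same libraries, so their levels are a description and carry no test. The series holds 39 libraries in 12 groups: microglia, the macrophages within the brain tissue, with 4, 3, 3, 2, 3 and 4 libraries at E10.5, E11.5, E12.5, E14.5, E16.5 and E18.5, and border-associated macrophages, below BAM, of the meninges and other brain borders, with 4, 3, 3, 3, 3 and 4. All embryos were of strain C57Bl/6 from timed matings, and the labels name no altered allele and no treatment for any group. Cells came from fluorescence-activated sorting of brain, and the labels give neither the gates nor whether replicates were separate litters, so p-values measure only the spread between these libraries.

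Mast cells are tissue-resident cells of the immune system that store proteases, histamine and proteoglycan in granules and release them when IgE on their surface is cross-linked. Carboxypeptidase A3, tryptases and chymases are granule proteases, the receptor tyrosine kinase Kit carries the survival signal from stem cell factor, and GATA2 is a transcription factor of the lineage. Mast cells are known to settle in the meninges, the membranes that also house BAM. Kit and Gata2 are used by other cells as well, among them blood progenitors and some neural and endothelial cells.

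Library totals ran from 10.7 to 47.2 M counts. Library names fell into series R10 (every library of E10.5 and E11.5, plus replicate 1 of each population at E18.5) and series R8 (all others). Of 10 macrophage markers, all 10 were counted in both populations, with summed levels of 6710 to 23960 CPM (the count scaled to the library total). The 6 BAM markers summed to 6117 to 27460 CPM in BAM and 458.4 to 4619 CPM in microglia. The 6 microglia markers summed to 762.2 to 11960 CPM in microglia and 272.9 to 1220 CPM in BAM, ranges that overlapped across stages. Within each stage the populations did not overlap for either list, so the markers followed the labels stage by stage. Microglia at E10.5 and E11.5 nonetheless had mean BAM marker sums (2206 and 3652 CPM) above their mean microglia marker sums (967.9 and 2977 CPM). Against these sums, the members were rare: no member passed 23.8 CPM in any library. In a bulk library a low level can come from fewer cells of a type or from less RNA per cell, and these cannot be told apart.

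Cpa3 encodes the granule carboxypeptidase and lies on the minus strand of chromosome 3 (20215620 to 20242181, GRCm38). It was the first of the protease genes to be counted. BAM at E10.5 had 0 counts in all 4 libraries, BAM at E11.5 had 0, 0.0683 and 0.893 CPM, and BAM at E12.5 had 1.97, 0.790 and 0 CPM. Microglia had traces at the same stages, with 0.0854, 0, 0.292 and 0 CPM at E10.5, 0.148, 0.0424 and 0.150 CPM at E11.5, and 1.48, 0.942 and 0 CPM at E12.5. The populations overlapped at each of these stages, and 7 of 10 microglia libraries against 4 of 10 BAM libraries held a read.

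From E14.5, Cpa3 was counted in 10 of 10 BAM libraries. It stood at 1.04, 2.96 and 1.57 CPM at E14.5, 6.13, 2.80 and 1.17 CPM at E16.5, and 5.18, 9.55, 0.265 and 11.9 CPM at E18.5. Replicate 3 at E18.5 was lower than every other late BAM library. Microglia had 0.936 and 0.927 CPM at E14.5, 8.70, 0 and 0 CPM at E16.5, and 0, 2.25, 1.27 and 1.13 CPM at E18.5. At E14.5 both microglia libraries lay below all 3 BAM libraries, whereas at E16.5 and E18.5 the ranges overlapped. The mean in BAM at E18.5 was 6.72 ± 5.13 CPM (SD, n = 4) and 8.88 CPM without replicate 3. In microglia at E18.5 it was 1.16 ± 0.919 CPM (SD, n = 4).

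Tpsb2 encodes a tryptase, and Cma1 encodes a chymase. Tpsb2 lies on the plus strand of chromosome 17 (25366550 to 25368094) and Cma1 on the minus strand of chromosome 14 (55941451 to 55944675). Neither gene had a read in any of the 20 libraries from E10.5 to E12.5. Pooled over the 10 early BAM libraries, a count of 0 allows up to 0.0124 CPM, and over the 10 early microglia libraries up to 0.0113 CPM, for counting error only. The E12.5 libraries belong to series R8, as do all libraries of E14.5, so the absence and the first reads both occurred within one series.

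Tpsb2 was counted in 10 of 10 BAM libraries from E14.5 on. It stood at 2.38, 2.01 and 1.31 CPM at E14.5, 3.38, 1.99 and 1.76 CPM at E16.5, and 5.63, 8.04, 0.177 and 8.997 CPM at E18.5. In microglia it stood at 1.78 and 0 CPM at E14.5, 2.18, 0 and 0 CPM at E16.5, and 0, 0.374, 0.507 and 0.716 CPM at E18.5. The BAM library with the lowest Tpsb2, replicate 3 at E18.5, lay below 3 of the 4 microglia libraries of that stage, and the other 3 BAM libraries lay above all of them. The mean at E18.5 was 5.71 ± 3.95 CPM in BAM (SD, n = 4), 7.55 CPM without replicate 3, and 0.399 ± 0.301 CPM in microglia (SD, n = 4).

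Cma1 in BAM stood at 2.23, 1.90 and 1.83 CPM at E14.5, 4.66, 0.853 and 0.419 CPM at E16.5, and 2.05, 3.69, 0.530 and 8.40 CPM at E18.5. Microglia had 2.34 and 0 CPM at E14.5, 5.61, 0 and 0 CPM at E16.5, and 0, 0.374, 0.380 and 1.74 CPM at E18.5. The populations overlapped at all 3 stages, and at E14.5 and E16.5 the highest single value was a microglia library. The mean at E18.5 was 3.67 ± 3.41 CPM in BAM (SD, n = 4) and 0.623 ± 0.765 CPM in microglia (SD, n = 4). Among 50-base windows of Cma1 transcripts, 5.38% also occur in another gene, so a small part of its reads could be split with a near-identical sequence.

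**Figure D1:**
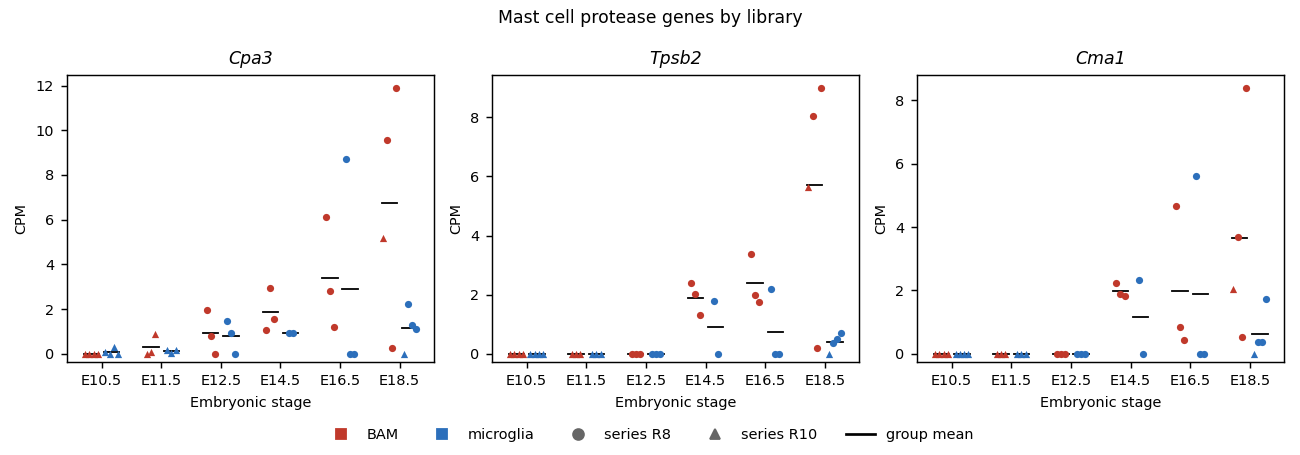
CPM of Cpa3, Tpsb2 and Cma1 (y axis) in each library at 6 stages (x axis), with BAM in red, microglia in blue, circles for series R8, triangles for series R10 and black bars for group means. Tpsb2 and Cma1 are at 0 in all 20 libraries up to E12.5, and from E14.5 they are above 0 in all 10 BAM libraries and in 5 of 9 microglia libraries.

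Tpsb2 and Cma1 were counted in the same libraries: 15 libraries held both and no library held either one alone. In microglia these were replicate 1 at E14.5, replicate 1 at E16.5 and replicates 2, 3 and 4 at E18.5, while 4 of the 9 late microglia libraries had neither. Requiring more than 3 counts of each gene, a rule added after the data were seen, left the same 10 BAM and 5 microglia libraries. That outcome was fixed, since the smallest count above 0 of either gene was 4. Tpsb2 had 4 counts in BAM E18.5 replicate 3 and microglia E18.5 replicate 2, and Cma1 had 4 in the latter. In the 8 libraries with at least 20 counts of each of the 3 genes, the ratio of Tpsb2 to Cpa3 counts ran from 0.25 to 1.9 and that of Cma1 to Cpa3 from 0.386 to 2.5. Cpa3 counts exceeded those of both others in 5 of those 8 libraries. Among BAM at E18.5 the ratio of Tpsb2 to Cma1 counts was 2.74 in replicate 1, 2.18 in replicate 2 and 1.07 in replicate 4.

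Ordered by mean level, Cpa3 ran from BAM at E18.5 (6.72 CPM) through BAM at E16.5 (3.37), microglia at E16.5 (2.90), BAM at E14.5 (1.86), microglia at E18.5 (1.16) and microglia at E14.5 (0.932) to BAM at E12.5 (0.919). For Tpsb2 the 3 late BAM groups came first, at 5.71, 2.38 and 1.90 CPM from E18.5 back to E14.5, followed by microglia at E14.5, E16.5 and E18.5 with 0.889, 0.725 and 0.399 CPM. For Cma1, microglia at E16.5 (1.87 CPM) came next to BAM at E14.5 and E16.5 (1.99 and 1.98 CPM). For each of the 3 genes, the ranges of groups next to each other in this order overlapped. The microglia mean at E16.5 rested on replicate 1: without it Cpa3, Tpsb2 and Cma1 were all at 0 there.

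Libraries of the 2 populations with adjacent library numbers could be set side by side at the late stages in 9 pairs; the labels do not say that such libraries share a litter or a sort. The summed level of Cpa3, Tpsb2 and Cma1 was higher in the BAM library in 7 of the 9 pairs. At E14.5 the sums were 6.86 CPM in BAM against 5.05 CPM in microglia in one pair and 4.70 against 0.927 CPM in the other. At E16.5 they were 14.2 against 16.49 CPM, 5.64 against 0 CPM and 3.35 against 0 CPM. At E18.5 they were 12.9 against 0 CPM, 21.3 against 2.99 CPM, 0.972 against 2.15 CPM and 29.3 against 3.58 CPM. The microglia library with the highest sum stood next to a BAM library that was the highest of its stage, and the BAM library with the lowest sum of all late BAM was below its neighbour.

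**Figure D2:**
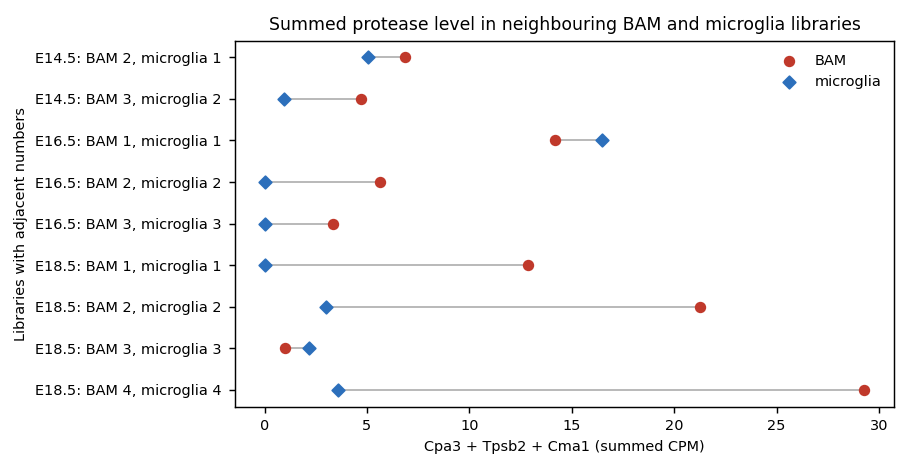
Summed CPM of Cpa3, Tpsb2 and Cma1 (x axis) in BAM (red circles) and microglia (blue diamonds) for the 9 pairs of libraries with adjacent numbers from E14.5 to E18.5 (y axis, replicate numbers given). BAM is higher in 7 pairs, and microglia is higher in 1 pair at E16.5 and 1 at E18.5.

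Promoter windows from 250 bases before to 50 bases after the start were found in RefSeq (GRCm38.p6) for 8 of the 9 members; that of Tpsb2 was not used here. The letters GATAA, a core that GATA factors bind, were searched on both strands. They occur in 5 of these 8 members and in 25.4% of 32851 promoter windows. The windows of the granule protease members are shown, as the genes counted mainly in late BAM, with GATAA or its reverse complement TTATC in capitals. They are chr3:20242132-20242431 for Cpa3, chr14:55944626-55944925 for Cma1 and chr14:56062261-56062560 for Mcpt4, each on the minus strand and printed 5′ to 3′ in the direction of the gene.
Cpa3: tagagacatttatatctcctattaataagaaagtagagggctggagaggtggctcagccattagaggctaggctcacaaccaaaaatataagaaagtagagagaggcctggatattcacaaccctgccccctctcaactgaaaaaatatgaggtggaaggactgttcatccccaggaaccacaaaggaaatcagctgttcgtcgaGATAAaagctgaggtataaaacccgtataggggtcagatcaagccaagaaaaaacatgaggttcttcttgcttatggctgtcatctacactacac
Cma1: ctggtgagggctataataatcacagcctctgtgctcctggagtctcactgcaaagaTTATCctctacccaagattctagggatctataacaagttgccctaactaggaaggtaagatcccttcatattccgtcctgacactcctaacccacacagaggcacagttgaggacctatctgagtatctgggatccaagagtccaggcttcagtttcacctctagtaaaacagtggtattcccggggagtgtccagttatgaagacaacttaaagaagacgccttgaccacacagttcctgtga
Mcpt4: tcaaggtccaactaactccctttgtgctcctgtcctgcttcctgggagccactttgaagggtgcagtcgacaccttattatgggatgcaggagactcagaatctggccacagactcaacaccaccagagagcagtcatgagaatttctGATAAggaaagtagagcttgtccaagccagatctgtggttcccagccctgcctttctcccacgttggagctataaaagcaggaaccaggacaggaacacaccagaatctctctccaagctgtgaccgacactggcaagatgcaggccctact
The match begins at position -45 from the start in Cpa3, at -194 in Cma1 and at -102 in Mcpt4. The other members with a match were Fcer1a, at -92, and Ms4a2, at -224, -37 and -10. Kit, Gata2 and Hdc had none in these windows. The E-box letters CACGTG or CATGTG occur in 1 of the 8, Fcer1a at -208, and in 20.4% of all windows. These matches describe the letters and not binding.

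Mcpt4, a second chymase gene on chromosome 14 (56059629 to 56062313, minus strand), was counted in 3 libraries only. It had 4 counts in BAM E14.5 replicate 2, 12 in BAM E18.5 replicate 1 and 37 in BAM E18.5 replicate 4, and 0 in all 19 microglia libraries. Windows shared with another gene, mostly Cma2, made up 5.48% of its transcripts. Replicate 4 was also the BAM library with the highest Cpa3, Tpsb2 and Cma1, whereas replicate 2 at E18.5, next highest for Cpa3 and Tpsb2, had no read of Mcpt4.

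The alpha and beta chain genes of the high-affinity IgE receptor were almost absent. The shared Fc receptor chain Fcer1g was not, at 398.8 ± 26.71 CPM in BAM at E18.5 (SD, n = 4). In microglia at E18.5 Fcer1g stood at 284.8 ± 46.09 CPM (SD, n = 4). Ms4a2, the beta chain of the high-affinity IgE receptor (chromosome 19, 11615523 to 11623719, minus strand), had 20 counts in BAM E16.5 replicate 1, 18 in microglia E16.5 replicate 1, 12 in BAM E18.5 replicate 1, and 2 each in microglia E10.5 replicate 1 and E11.5 replicate 3. The first 2 of these are the pair with adjacent numbers in which both libraries were high for the proteases. Fcer1a, the alpha chain that binds IgE (chromosome 1, 173221284 to 173227214, minus strand), had 2 counts in all, in microglia E16.5 replicate 2. That library had no read of Cpa3, Tpsb2 or Cma1. Fcer1a did not pass the expression filter, and 8 of the 9 members did.

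**Figure D3:**
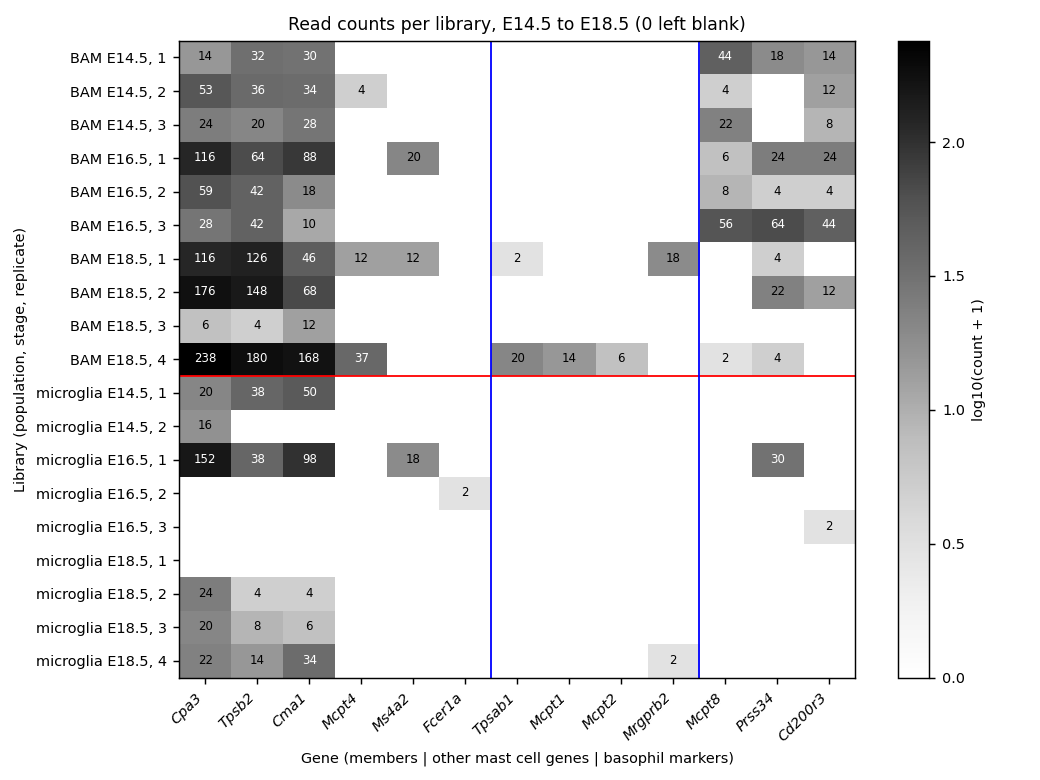
Read counts (numbers and grey scale, log10 of count plus 1) of 6 members, 4 other mast cell genes and 3 basophil genes (x axis) in each of the 19 libraries from E14.5 to E18.5 (y axis; BAM above the red line, microglia below). Cpa3, Tpsb2 and Cma1 fill every BAM row, while Mcpt4, Ms4a2, Fcer1a and the 4 other mast cell genes occur in few libraries.

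Hdc encodes histidine decarboxylase, the enzyme that makes histamine (chromosome 2, 126593667 to 126619299, minus strand), and was counted in 36 libraries. In BAM it stood at 0, 0.0705, 0.933 and 0.341 CPM at E10.5, 0.582, 0.0683 and 2.52 CPM at E11.5, and 1.54, 0.263 and 0.657 CPM at E12.5. Later BAM libraries had 0.894, 1.11 and 3.002 CPM at E14.5, 4.81, 2.84 and 7.93 CPM at E16.5, and 8.48, 6.95, 3.40 and 11.2 CPM at E18.5. All 7 BAM libraries of E16.5 and E18.5 lay above the BAM libraries of E10.5 to E12.5. BAM E18.5 replicate 3, in which the 3 proteases were lowest, was also the lowest of its group for Hdc. The earlier late stages went the other way. Replicate 3 at E14.5 and replicate 3 at E16.5 had the lowest summed proteases of their groups (4.70 and 3.35 CPM) and the highest Hdc.

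In microglia Hdc stood at 0.512, 0.0724, 0.365 and 0.397 CPM at E10.5, 0.592, 0.0424 and 0 CPM at E11.5, and 0.123, 5.47 and 1.36 CPM at E12.5. It then stood at 0.374 and 1.16 CPM at E14.5, 2.06, 0 and 0.221 CPM at E16.5, and 0.510, 1.12, 4.05 and 1.43 CPM at E18.5. At E16.5 the populations did not overlap, and at E18.5 they overlapped through BAM replicate 3 and microglia replicate 3.

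To test whether the members differed between populations and over time, a model of all 22061 genes that passed the filter was fitted with edgeR's quasi-likelihood test, and p-values were adjusted by Benjamini-Hochberg over all of them. Calls were counted over the 6 members other than Cpa3, Tpsb2 and Cma1, of which 5 were tested, since Fcer1a was filtered out. Between BAM and microglia no tested member was called at any of the 6 stages, where 4.52% of all tested genes were called at E10.5, 6.7% at E11.5, 8.59% at E12.5, 7.28% at E14.5, 13.9% at E16.5 and 15.5% at E18.5. At an unadjusted p under 0.05 there was 1 member at E11.5 (Gata2), 1 at E16.5 (Hdc) and 1 at E18.5 (Mcpt4) and 0 at the other stages, and DESeq2 called 0 at each stage. Mcpt4 passed the filter only through BAM E18.5 replicates 1 and 4, where it is high, so its p restates the filter and supports nothing. Some tests could not give a call, because no compared library held a read. These were Mcpt4 at E10.5, E11.5, E12.5 and E16.5 and Ms4a2 at E12.5 and E14.5.

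Hdc in BAM against microglia had a log2 fold change of 2.83 ± 1.35 (SE) at E16.5 (adjusted p = 0.189 from edgeR) and of 1.97 ± 1.12 at E18.5 (adjusted p = 0.285). Without microglia E16.5 replicate 1, the E16.5 value was 5.46 and passed the threshold (adjusted p = 0.0478 from edgeR). In a fit of the 2 compared groups alone, the E18.5 value was 1.98 and passed it (adjusted p = 0.0327 from edgeR). The share of all tested genes called in these alternative fits is not given here.

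Over time in BAM, Hdc rose between E10.5 and E18.5 by 4.46 ± 1.26 on the log2 scale (adjusted p = 0.00506 from edgeR). Kit rose too, so 2 of the 5 tested members were called in this comparison, where 37.5% of all tested genes were. Since all E10.5 libraries are of series R10 and 3 of 4 E18.5 libraries are of R8, series and stage go together here. In R10 alone, with 1 BAM library at E18.5 whose spread is taken from the other groups, the Hdc value was 4.63 and was not called (adjusted p = 0.112 from edgeR). Within BAM from E12.5 to E18.5, Hdc differed by 3.29 ± 1.34 (adjusted p = 0.122 from edgeR), and no tested member was called by edgeR against 10.7% of all tested genes. Hdc had an unadjusted p under 0.05 there, as did Mcpt4, whose p again restates the filter, and DESeq2 called Hdc (adjusted p = 0.0298).

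In microglia Hdc differed by 2.45 ± 1.18 from E10.5 to E18.5 (adjusted p = 0.103 from edgeR), and by -0.24 ± 1.18 from E12.5 to E18.5 (adjusted p = 0.960). The change from E12.5 to E18.5 in BAM minus that in microglia was 3.52 ± 1.73 for Hdc (adjusted p = 0.415 from edgeR). For that difference of changes no tested member was called, against 2.25% of all tested genes. Mcpt4 and Ms4a2 could not be called there, with no read in BAM at E12.5 or in microglia at either stage. Hdc alone had an unadjusted p under 0.05, and DESeq2 called 0.

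Kit, the stem cell factor receptor (chromosome 5, 75574916 to 75656722, plus strand), was counted in 38 libraries, and its time course differed from that of the proteases. In BAM the levels were 0.407, 0.740, 0.467 and 0 CPM at E10.5, 2.33, 0.0683 and 2.52 CPM at E11.5, and 11.4, 4.13 and 1.397 CPM at E12.5. They were 9.61, 14.7 and 17.2 CPM at E14.5, 9.20, 5.17 and 2.52 CPM at E16.5, and 2.95, 13.8, 10.4 and 12.1 CPM at E18.5. The BAM E14.5 libraries lay above all BAM libraries of E10.5 and E11.5 and overlapped those of E12.5 and E18.5.

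In microglia Kit stood at 0.854, 0.217, 1.13 and 0.874 CPM at E10.5, 0.518, 1.53 and 2.03 CPM at E11.5, and 8.57, 5.13 and 3.995 CPM at E12.5. It stood at 23.8 and 17.8 CPM at E14.5, 4.75, 7.20 and 5.63 CPM at E16.5, and 7.99, 3.93, 4.05 and 1.38 CPM at E18.5. Both microglia libraries of E14.5 lay above every other library of either population. The difference between BAM and microglia at E14.5 was -0.52 ± 0.88 on the log2 scale (adjusted p = 0.954 from edgeR). The neural markers, all 7 of 7 counted, also summed highest in microglia at E14.5, with 741 to 828 CPM, and reached 441.3 to 660.2 CPM in BAM at E14.5. At E12.5 they summed to 461.4 to 576.3 CPM in microglia and 178.5 to 704.6 CPM in BAM. The sums at E16.5 were 235.4 to 425.9 CPM in microglia and 129.7 to 255.3 CPM in BAM. At E18.5 they summed to 144.1 to 258.2 CPM in microglia and 186.8 to 377.2 CPM in BAM. Their part in the Kit levels was not tested.

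Between E10.5 and E18.5 Kit rose in BAM by 4.54 ± 0.82 (adjusted p = 3.32e-05 from edgeR) and in microglia by 2.57 ± 0.75 (adjusted p = 0.00743). In microglia it was the 1 called member of 5 tested, where 35.2% of all tested genes were called. Mcpt4, 1 of those 5, had no read in microglia and could not be called. In series R10 alone, a comparison added after the data were seen, the values were 2.82 in BAM (adjusted p = 0.215 from edgeR) and 3.49 in microglia (adjusted p = 0.117). At E18.5 BAM and microglia differed by 1.05 ± 0.70 (adjusted p = 0.385 from edgeR), and by 1.92 (adjusted p = 0.137) without the R10 libraries. Those were the lowest Kit library of the BAM group and the highest of the microglia group.

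Endothelial markers, all 6 of 6 counted, were also higher at E18.5 than at E10.5. They summed to 40.48 to 49.64 CPM in BAM at E10.5 and 58.76 to 272.2 CPM at E18.5, and to 59.42 to 81.67 CPM and 94.0 to 165.0 CPM in microglia. By edgeR, 4 of the 6 were called higher and 0 lower in BAM, with a median of 2.37 on the log2 scale against 0.29 over all tested genes, and 3 of the 6 were higher and 0 lower in microglia, with a median of 1.98 against 0.29. In microglia the mean endothelial sum was 134.5, 143.6, 143.5 and 136.7 CPM at E12.5, E14.5, E16.5 and E18.5. Mean Kit in those groups was 5.90, 20.8, 5.86 and 4.34 CPM. Within BAM at E18.5, replicate 1 was lowest for Kit, for Gata2 and for the endothelial sum (58.76 against 126.8 to 272.2 CPM). The same library was lowest for the neural sum (186.8 against 226.0 to 377.2 CPM) and the red cell sum (118.5 against 121.3 to 231.6 CPM). It was also the only library of its group from series R10. The parts of endothelial, red and neural cells in the Kit and Gata2 levels were not tested.

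Gata2, a zinc finger transcription factor of mast cells and blood progenitors (chromosome 6, 88193891 to 88207032, plus strand), was not called by edgeR in any of the 11 comparisons. In BAM it stood at 0.0679, 1.06, 0.544 and 1.11 CPM at E10.5, 0.485, 0.0683 and 0 CPM at E11.5, and 5.20, 2.50 and 2.63 CPM at E12.5. It stood at 1.49, 3.51 and 5.87 CPM at E14.5, 1.27, 2.94 and 1.34 CPM at E16.5, and 0.268, 3.47, 4.64 and 2.25 CPM at E18.5. Replicate 3 at E18.5, lowest for the proteases, was the highest of its group for Gata2.

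In microglia Gata2 ranged from 0.217 to 1.54 CPM at E10.5 and from 0.509 to 3.08 CPM at E11.5, and stood at 0.247, 11.3 and 5.95 CPM at E12.5. It stood at 1.78 and 2.90 CPM at E14.5, 0.344, 1.07 and 0.110 CPM at E16.5, and 0.0850, 1.12, 0.253 and 1.33 CPM at E18.5. From E12.5 to E18.5 it differed by -2.96 ± 1.07 in microglia (adjusted p = 0.0932 from edgeR) and by -0.30 ± 1.02 in BAM (adjusted p = 0.927). No tested member was called in microglia over that interval, against 6.92% of all tested genes. Mcpt4 and Ms4a2 had no read in either group and could not be called. Gata2 alone had an unadjusted p under 0.05. DESeq2 called Gata2 (adjusted p = 0.0271), as did edgeR without microglia E12.5 replicate 1 (-3.52, adjusted p = 0.0381). From E10.5 to E18.5 it differed by 1.91 ± 0.98 in BAM (adjusted p = 0.126 from edgeR). BAM and microglia differed by 1.87 ± 1.00 at E18.5 (adjusted p = 0.244 from edgeR).

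**Figure D4:**
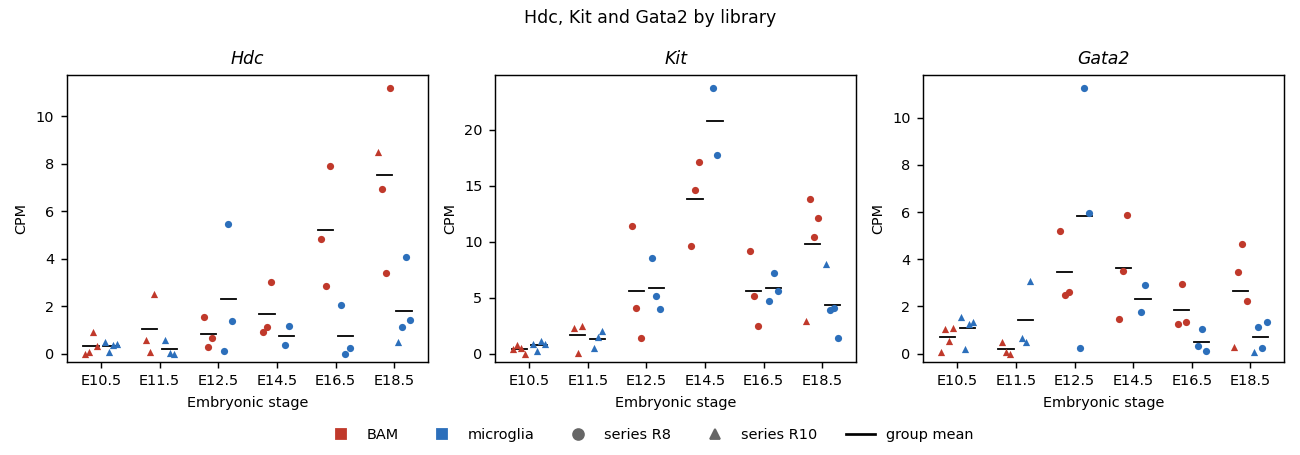
CPM of Hdc, Kit and Gata2 (y axis) in each library at 6 stages (x axis), with BAM in red, microglia in blue, circles for series R8, triangles for series R10 and black bars for group means. Hdc is highest in BAM at E16.5 and E18.5, Kit is highest at E14.5 in both populations, and Gata2 has its highest library in microglia at E12.5.

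Blood progenitor markers summed to 109.6 to 156.3 CPM in late microglia, with 9 of 9 counted, and to 20.97 to 60.03 CPM in late BAM, with 8 of 9 counted and Gfi1b at 0. At E18.5 the microglia sum, 116.9 CPM on average, rested mostly on Cd34, at 98.6 ± 8.95 CPM (SD, n = 4). In BAM at E18.5 Cd34 stood at 16.54 ± 9.25 CPM (SD, n = 4), beside a mean sum of 43.16 CPM. Other genes of the list had higher means in BAM, among them Meis1 (16.1 against 13.8 CPM), Hlf (3.52 against 0.668 CPM) and Mecom (3.54 against 0.182 CPM). Of the 9 genes, 0 were called higher and 1 lower in BAM at E18.5 by edgeR, and the list's median was 0.53 on the log2 scale against 0.01 over all tested genes. Their part in the Kit and Gata2 levels was not tested.

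Levels of different members can be compared per length, as counts per kilobase of gene and per M counts (RPKM). In BAM at E18.5, Tpsb2 had the highest mean (5.28 ± 3.66 RPKM, SD, n = 4), followed by Cpa3 (4.43 ± 3.38 RPKM) and Cma1 (3.37 ± 3.13 RPKM). Hdc had 1.18 ± 0.509 RPKM and Kit 1.10 ± 0.537 RPKM, while Mcpt4 (0.538 ± 0.788 RPKM) and Gata2 (0.492 ± 0.346 RPKM) were lower. The spread of the first 3 exceeded the distances between them. In microglia at E18.5, Cpa3 (0.764 ± 0.606 RPKM, SD, n = 4), Cma1 (0.572 ± 0.702 RPKM), Kit (0.487 ± 0.306 RPKM) and Tpsb2 (0.369 ± 0.279 RPKM) all had means below 1 RPKM, and their ranges over the 4 libraries overlapped.

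A list of 24 further mast cell genes was set beside the members. Of these, 11 had a count in every one of the 39 libraries, and 16 were tested. At E18.5, 3 of the 16 were higher in BAM and 1 was lower, against 6.7% higher and 8.76% lower of all tested genes, and the list's median was 0.04 on the log2 scale against 0.01 over all tested genes. Alox5, the 5-lipoxygenase of leukotriene synthesis, which macrophages also use, was higher by 2.42 ± 0.21 (adjusted p = 3.54e-11 from edgeR). The proteoglycan core Srgn was higher by 0.86 ± 0.25 (adjusted p = 0.0127), and so was the shared Fc receptor chain Fcer1g, by 0.38 ± 0.13 (adjusted p = 0.0498). Tal1, a transcription factor of blood and mast cells, was lower by -1.61 ± 0.28 (adjusted p = 3.5e-05 from edgeR). At E12.5, before any read of Tpsb2 or Cma1, Alox5 already stood at 77.11 ± 7.454 CPM in BAM (SD, n = 3). In microglia at E12.5 it stood at 19.57 ± 3.685 CPM (SD, n = 3), so this difference was not particular to late stages. Srgn went the other way at E12.5, at 13.64 ± 4.199 CPM in BAM and 46.26 ± 5.965 CPM in microglia (SD, n = 3). Fcer1g lost its call under 9 of the alternatives tried, and Srgn lost its call without microglia replicate 1 and without BAM replicate 2 (adjusted p = 0.0687 and 0.0637 from edgeR).

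From E12.5 to E18.5 in BAM, 4 of the 16 rose and 2 fell, against 5.3% and 5.4% of all tested genes, with a median of 0.29 against 0.03 over all tested genes. Srgn rose by 2.15 ± 0.29 (adjusted p = 1.72e-06 from edgeR), and the leukotriene C4 synthase Ltc4s by 1.88 ± 0.30 (adjusted p = 2.55e-05). Il1rl1, the receptor for interleukin 33, rose by 1.58 ± 0.36 (adjusted p = 0.00238 from edgeR) and Alox5 by 0.96 ± 0.22 (adjusted p = 0.00246). Tal1 fell by 1.25 ± 0.29 (adjusted p = 0.00316 from edgeR). Gata1, a partner of GATA2 in mast cells and red cells, stood at 1.19 ± 0.475 CPM in BAM at E12.5 (SD, n = 3) and at 0 in all 4 BAM libraries of E18.5 (adjusted p = 0.00914 from edgeR). How the Gata1 call fares under the alternatives is not given here. In microglia at E18.5, Il1rl1 stood at 20.4 ± 3.66 CPM and Ltc4s at 19.5 ± 1.76 CPM (SD, n = 4), beside 19.5 ± 6.27 and 20.5 ± 2.97 CPM in BAM.

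The further granule proteases had reads in few libraries. Tpsab1, a second tryptase gene, had 20 counts in BAM E18.5 replicate 4 and 2 in replicate 1. Mcpt1 had 14 and Mcpt2 had 6, both in replicate 4, and all 3 genes were at 0 in the 19 microglia libraries. Mrgprb2, a receptor of connective tissue mast cells, had 18 counts in BAM E18.5 replicate 1 and 2 in microglia E18.5 replicate 4. Cyp11a1, a steroid synthesis enzyme, was at 0 in all 20 early libraries and was counted in 9 of 10 late BAM libraries (281 counts) and 5 of 9 late microglia libraries (39 counts).

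Basophils share granule genes with mast cells, so their markers are given for the same libraries. Of 5 basophil genes, 4 were counted in late BAM and 3 in late microglia, with summed levels of 1.94 to 9.10 CPM in late BAM and 0 to 1.95 CPM in late microglia, and Il13 was at 0 throughout. Mcpt8, a basophil protease, had 44, 4 and 22 counts in BAM at E14.5, 6, 8 and 56 at E16.5, and 0, 0, 0 and 2 at E18.5, and 0 in all microglia and all early libraries. Prss34 had 18, 0 and 0 counts in BAM at E14.5, 24, 4 and 64 at E16.5, and 4, 22, 0 and 4 at E18.5, and in microglia 30 counts in E16.5 replicate 1 alone. Il4, a cytokine, stood at 1.85 ± 0.866 CPM (SD, n = 3), 1.87 ± 0.309 CPM (n = 3) and 1.94 ± 0.306 CPM (n = 4) in BAM at the same stages, and Cd200r3 at 0.745 ± 0.269, 1.10 ± 0.841 and 0.163 ± 0.326 CPM. Neutrophil markers, 8 of 8 counted in both populations, summed to 1.38 to 8.60 CPM in late BAM and 0.102 to 3.78 CPM in late microglia. The part of basophils and neutrophils in the member levels was not tested.

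The genes whose levels ran most like those of the 3 proteases were ranked by Pearson's r with the mean log2(CPM + 1) of Cpa3, Tpsb2 and Cma1, as a description across libraries that share stage and series. Over all 39 libraries and 14484 genes the first 10 were Luzp2 (r = 0.794), Cdr1 (0.790), Hpca (0.790), Fam135b (0.786), Dync1i1 (0.781), Vsnl1 (0.772), Rasgef1a (0.771), Notch2 (0.770), Hist3h2a (0.768) and Sh3gl2 (0.764). Hdc ranked 45 (r = 0.727), Kit 1321 (r = 0.541), Ms4a2 1670 (r = 0.514) and Gata2 6435 (r = 0.165). Over the 10 late BAM libraries alone and 13523 genes, the first 10 were St5 (r = 0.856), Il1rl1 (0.822), Trmt61b (0.813), Fam135b (0.810), Xpo4 (0.794), Fbxo38 (0.786), Prr14l (0.783), Asic2 (0.780), Gorab (0.775) and Gzf1 (0.775). Fam135b was the 1 gene in both lists. Within late BAM, Hdc had r = 0.515, Kit 0.189 and Gata2 -0.302.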

How the data were processed

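RNA from sorted embryonic brain macrophages was extracted with the PicoPure kit, amplified from 2 ng with a modified SMART-seq2 protocol with spike-ins and sequenced in pairs, per the labels' protocols. The authors aligned reads with STAR to GRCm38 and counted them per gene with featureCounts, per the submitters' processing notes; versions, strand setting and annotation release are not given in the sources used here. The deposited values are raw counts per gene and library. Of the members' 178 counts above 0, 155 were even, as when both reads of a pair are counted, so a counting limit from 3 counts is to be read with care. Every count column was used.

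The members and gene lists were chosen with earlier results of these data known. Identifiers were matched to symbols (53274 of 53379). CPM was taken over each library total, and RPKM with the gene lengths of the deposited table. Genes were filtered with filterByExpr, leaving 22061 with 99.973% of the counts. Counts were fitted in edgeR 4.0.16 under R 4.3.3 with TMM factors, 1 coefficient per group over all 39 libraries (27 residual degrees of freedom), the robust quasi-likelihood test and Benjamini-Hochberg adjustment at 0.05. Positive log2 values are those higher in BAM, or at E18.5. The fit was run on simulated counts with less spread than these data, in which only genes better counted than most members were changed. It therefore does not show how the fit behaves for genes as rare as most members. Alternatives were RLE factors, no filter, only the compared groups, counts divided by 2, adjacent library numbers as a block, R10 libraries left out at E18.5, DESeq2 1.42.0, and each replicate left out; the last kept the dispersion trend of the whole fit. Series R10 alone and the minimum of more than 3 counts were added after the data were seen. Named genes were the members, called genes of the further mast cell list at E18.5 or from E12.5 to E18.5 in BAM, and the 10 genes most like the proteases, leaving out predicted names. Genes singled out beyond this rule, among them Tpsab1, Mcpt1, Mcpt2, Mrgprb2, Cyp11a1, Mcpt8 and Prss34, were chosen after their values were seen.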

Additional observations from a re-analysis of the deposited data

Results flagged for a closer look

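In groups of 4 libraries, 2 of the 22 combinations of group and member with any spread had a library far from the others. Chance gives about 1 in 20 for values that vary smoothly, a rate that does not apply here: with 3 libraries at 0, any single library with a read stands apart by construction. Ms4a2 in BAM at E18.5 stood at 0.536 CPM in replicate 1 (12 counts) and at 0 in the other 3 libraries. Ms4a2 in microglia at E10.5 stood at 0.0854 CPM in replicate 1 (2 counts) and at 0 in the other 3.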

How the results depend on the processing

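Counts of members called stayed within 1.5 times the reported count in 143 of 152 recomputed values. Most reported counts were 0, and a count that stayed at 0 was scored as unchanged. Part of this was fixed in advance, since members without a read in the compared groups could not be called. In fits of the compared groups alone, 1 member was called between BAM and microglia at E18.5, 1 in BAM from E12.5 to E18.5 and 2 in microglia from E10.5 to E18.5. DESeq2 called 1 in BAM and 1 in microglia from E12.5 to E18.5. In series R10 alone the counts from E10.5 to E18.5 were 0 in BAM and 0 in microglia. With one replicate left out at a time, the counts ran from 0 to 1 between BAM and microglia at E16.5 (1 without microglia replicate 1) and from 0 to 1 in microglia from E12.5 to E18.5 (1 without E12.5 replicate 1). The share of all tested genes called under these alternatives, DESeq2 included, is not given here. These counts therefore cannot be set against such a share.

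Of 408 recomputed log2 fold changes 378 kept their direction and side of the threshold, 14 lost the threshold, 7 passed it and 9 changed sign, all 9 among values that were not called. Gata2 in BAM from E12.5 to E18.5 turned to 0.0173 with the R10 libraries left out at E18.5, and ran from -0.70 to 0.0738 with one replicate left out, above 0 without BAM E18.5 replicate 1 or E12.5 replicate 1 (0.0029). From E10.5 to E18.5 it turned to -1.39 in R10 alone. Hdc in microglia from E12.5 to E18.5 turned to 0.0008 with the R10 libraries left out, and ran from -1.08 to 1.43 with one replicate left out, above 0 without E18.5 replicate 1 (0.0726) or E12.5 replicate 2. Kit in microglia from E12.5 to E18.5 ran from -0.77 to 0.11, above 0 without E12.5 replicate 1 or E18.5 replicate 4 (0.052). The cause was not tested.

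Labels give no replicate numbers that pair the populations. With adjacent library numbers as a replicate block, 0 members were called between BAM and microglia at each of the 6 stages, and the Hdc value at E16.5 was 4.17 (adjusted p = 0.0955 from edgeR). With a pseudocount of 0.1, 6 of the 10 genes most like the proteases stayed over all libraries and 5 over late BAM. Levels of Cpa3, Tpsb2 and Cma1 rest on at most 238 counts in a library, so single libraries decide group means.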
